A study of Mus musculus with 3 samples.

Results

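Naive CD8 T cells of the mouse mesenteric lymph node, which drains the intestine, are described here as 1085 barcodes of 67002 kept in 3 single-cell libraries. A barcode was kept with at least 300 genes and at most 10% mitochondrial UMIs (unique molecular identifiers, each standing for 1 captured transcript). It counted as a naive CD8 T cell when it held a UMI of Cd3d, Cd3e or Cd3g, at least 1 UMI each of Cd8a and Cd8b1, and none of Cd4, Cd79a, Trdc, Ifit1 and Ifit3. Fewer than 2 of 6 memory-associated genes (Il2rb, Eomes, Ly6c2, Cxcr3, Klrd1, Klrk1) were allowed a UMI. The members were thus chosen by the measured UMIs of these 16 genes in the same cells, and the levels of these genes describe the choice. Ccr9 and Dapl1, which were named as markers of these cells with results of the same libraries known, are likewise given as descriptions.

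Mice were fed for 4 weeks by mouth with 5 mM citrate buffer (559 naive CD8 barcodes), with 1 µg of ovalbumin as free OVA (200), or with the same dose of ovalbumin as LysoPS-OVA (326), LysoPS standing for lysophosphatidylserine, a lipid with receptors on lymphocytes. Each group is 1 library made from the pooled nodes of 6 animals, so no spread between animals can be had. Strain, age and sex are not given in the labels. The labels call the cells intestinal, but the tissue is the node, and lymphocyte transcripts filled the libraries: Cd3 transcripts were seen in 57.0%, 29.1% and 50.1% of kept barcodes of the citrate buffer, free OVA and LysoPS-OVA libraries (the order used throughout). Treatments are compared below by size with intervals for counting error and no test. Tests were possible only between kinds of T cell measured in the same 3 libraries.

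A naive CD8 T cell has left the thymus and has not yet met its antigen. It moves between blood and lymph nodes with the chemokine receptor CCR7, leaves a node through the sphingosine 1-phosphate receptor S1PR1, and lives on interleukin 7. In the nodes of the gut, some of these cells carry CCR9, the receptor for the intestinal chemokine CCL25, and the αE integrin chain CD103 (Itgae), which binds E-cadherin. The factor RUNX3 sets the CD8 fate and ThPOK (Zbtb7b) the CD4 fate.

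Promoters of 3 genes that set naive CD8 apart from naive CD4 barcodes below are shown because each holds the core letters bound by RUNX factors. Each run is the 250 bases before the RefSeq start (GRCm38.p6, plus strand, which is the genes' own), with matches to TGTGGT or its reverse complement ACCACA in capitals. Of the other genes with an entry that were looked up, Ccr9, Cd8a, Dapl1 and Ly6c1 had no match in this window, nor had the second Runx3 start and the first Zbtb7b start. The second start of Zbtb7b, which was lower in naive CD8, had 1.
Nkg7 (chr7:43436888-43437137): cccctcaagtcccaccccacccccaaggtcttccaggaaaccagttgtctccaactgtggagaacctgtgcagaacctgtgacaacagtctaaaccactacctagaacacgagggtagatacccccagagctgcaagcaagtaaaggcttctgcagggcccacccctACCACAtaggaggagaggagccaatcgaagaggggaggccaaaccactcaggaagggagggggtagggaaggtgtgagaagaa
Cxcr6 (chr9:123806227-123806476): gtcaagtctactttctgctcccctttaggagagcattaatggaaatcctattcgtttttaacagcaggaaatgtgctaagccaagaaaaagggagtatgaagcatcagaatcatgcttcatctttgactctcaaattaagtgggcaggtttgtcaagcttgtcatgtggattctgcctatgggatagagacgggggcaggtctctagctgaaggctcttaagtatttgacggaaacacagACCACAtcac
Runx3 (chr4:135120395-135120644): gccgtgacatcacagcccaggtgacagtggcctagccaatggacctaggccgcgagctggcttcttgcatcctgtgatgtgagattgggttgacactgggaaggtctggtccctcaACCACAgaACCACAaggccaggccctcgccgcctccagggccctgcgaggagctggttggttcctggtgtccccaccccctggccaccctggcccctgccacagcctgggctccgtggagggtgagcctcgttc
The hexamer occurred once in the windows of Nkg7 and Cxcr6 and 2 times in that of the first Runx3 start. It occurred in 13.3% of the 573 promoters of genes higher in naive CD8 barcodes, 11.3% of the 531 lower, 10.8% of the 8244 of tested genes and 14.2% of all 27025 in the table, so a match in such a window is common.

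The naive CD8 share depended on how many UMIs were read and on which barcodes were used. Of barcodes with a Cd3 transcript, 3.72% (95% exact binomial interval 3.42 to 4.04), 2.95% (2.56 to 3.38) and 3.76% (3.37 to 4.18) lay in the naive CD8 gate. Of all CD8 T barcodes the naive gate held 62.7%, 48.5% and 50.2%, the gate with 2 or more of the 6 genes (memory-like CD8 below) 26.2%, 37.6% and 37.2%, and barcodes with Ifit1 or Ifit3 the rest. The library with the larger naive share was the shallowest: median UMIs of naive CD8 barcodes were 4537, 6751.5 and 5706.5. Thinning drew the same number of UMIs from each barcode that had at least that many, and left out the other barcodes. At 3000 UMIs 8891 of 15020, 3900 of 6785 and 7209 of 8672 Cd3 barcodes remained. The naive share of CD8 was then 77.4%, 78.1% and 71.8%, and at 1000 UMIs it was 91.3%, 95.5% and 94.2%. At equal depth, among the barcodes left, the citrate buffer library no longer held the largest share. The naive CD8 share of Cd3 barcodes was 5.28%, 4.67% and 4.27% at 3000 UMIs, with LysoPS-OVA lowest, and 1.57%, 1.53% and 1.60% at 1000 UMIs. The shares at 3000 UMIs are of barcodes with Cd3 before thinning, and those at 1000 UMIs of barcodes with Cd3 after it. The order of the libraries differed between them, and the parts of depth, barcodes left out and base were not tested.

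**Figure D1:**
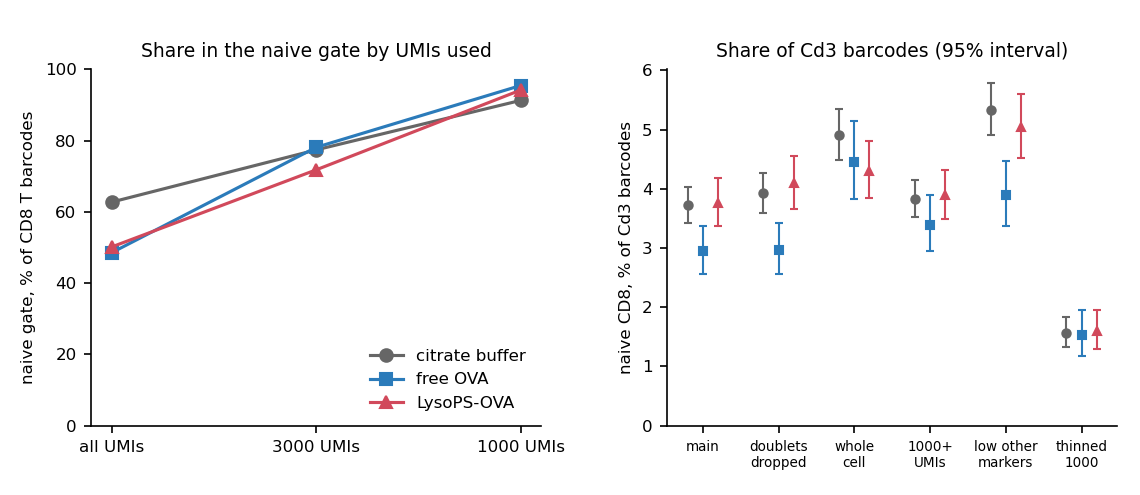
Left, percent of CD8 T barcodes in the naive gate (y axis) with all UMIs and after thinning to 3000 and 1000 UMIs per barcode (x axis), 1 line per library. Right, naive CD8 barcodes as percent of Cd3 barcodes under 6 ways of choosing barcodes, with 95% exact binomial intervals. On the left, citrate buffer (62.7% with all UMIs) lies at 77.4% at 3000 UMIs, near free OVA (78.1%) and above LysoPS-OVA (71.8%). The 3 points on the right overlap at 1000 UMIs.

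Facts of the libraries that touch these cells are the following. Of naive CD8 barcodes 10.6%, 4.0% and 2.15% had under 10% ribosomal protein transcripts, and their median ribosomal share was 27.8%, 31.9% and 33.3%. Doublets were called for 9.30%, 6.5% and 2.76% of them. Markers of B, plasma, dendritic, macrophage, red, stromal and epithelial cells (41 genes) made up a median of 0.166%, 0.0905% and 0.0941% of their UMIs, and exceeded 1% in 14, 4 and 1 barcodes. In citrate buffer 96.6% of the 2610 Hba-a1 (haemoglobin) UMIs lay in 2 of these barcodes. Among barcodes with transcripts of 1 sex only, those with Y-linked genes were 62.1% (57.0 to 67.1), 82.2% (74.5 to 88.3) and 81.6% (76.4 to 86.1). This share thus differed between the libraries. Left out were 138, 61 and 51 barcodes with neither Xist nor Y-linked transcripts, and 46, 10 and 14 with both. The parts of depth and of other cells' RNA were not tested. Of naive CD8 barcode sequences 1 was shared between libraries, by LysoPS-OVA and citrate buffer.

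Naive CD8 barcodes were set against naive CD4 barcodes of the same libraries (1515, 835 and 1421), gated on Cd4 without Cd8a and Cd8b1. The naive CD4 gate also excluded Foxp3 and capped how many of Icos, Maf, S100a4, Il2ra, Ctla4 and Tnfrsf4 could have a UMI. The naive CD8 gate had no such limits, and their part in the differences was not tested. The comparison asks which transcripts besides the coreceptors set naive CD8 apart from naive CD4 barcodes in these nodes. UMIs were summed per gate and library and tested with edgeR's quasi-likelihood test with the library as a block, leaving out the genes of the gates. Of 10570 genes, 751 (7.11%) were called higher and 682 (6.45%) lower in naive CD8 barcodes at an adjusted p under 0.05. These p-values concern how alike the difference was in 3 libraries, which are not replicates of a treatment.

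The gene with the highest ratio was Nkg7, and the intestinal chemokine receptor Ccr9, the integrin chain Itgae and the chemokine receptor Cxcr6 were also among the highest. Nkg7 (chromosome 7, 43437073 to 43438249 in GRCm38), which encodes a cytotoxic granule membrane protein, stood at 359, 291.5 and 353 CPM (counts-per-million, the UMIs of a gene scaled to the same total in every sum) in naive CD8 against 12.4, 3.27 and 4.47 in naive CD4 (log2 5.66 ± 0.15 SE, edgeR adjusted p = 7.8e-18). Naive CD8 lay above naive CD4 in every library. Ccr9 (chromosome 9, 123678439 to 123784330) stood at 296, 211 and 229 CPM against 23.8, 5.52 and 5.55 (log2 4.45 ± 0.17). Itgae (chromosome 11, 73090583 to 73147446) stood at 138, 53.1 and 65.3 CPM against 7.32, 2.25 and 2.57 (log2 4.43 ± 0.14, adjusted p = 4.6e-16), so the citrate buffer library was highest in both kinds of cell. Cxcr6, a chemokine receptor whose gene lies close to Ccr9 on chromosome 9, was at 29.1, 34.9 and 38.1 against 3.58, 1.23 and 3.39 CPM (log2 3.58 ± 0.24). After thinning to 2000 UMIs, Ccr9 was seen in 37.6%, 28.0% and 31.2% of naive CD8 barcodes, in 4.75%, 1.56% and 1.31% of naive CD4 barcodes and in 2.53%, 1.22% and 0.875% of B barcodes, which should lack it.

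The lineage factors were divided between the gates. Runx3 was at 313, 260.4 and 306 CPM in naive CD8 and 52.1, 60.5 and 56.2 in naive CD4 (log2 2.43 ± 0.079, adjusted p = 4.6e-16). Zbtb7b was at 5.97, 1.52 and 5.66 CPM against 33.4, 38.0 and 37.7 (log2 -2.85 ± 0.22). Of the 12 lineage factors tested, 2 were higher (Runx3 and Ikzf3, an Ikaros family factor, log2 0.84) and 6 lower, among them Runx1 (log2 -1.33) and Gata3 (log2 -0.73). Among all genes tested 7.11% were called higher and 6.45% lower. Cd40lg, the helper ligand for B cells, was at 3.73, 5.31 and 7.2 CPM against 109.9, 124.9 and 148 (log2 -4.55 ± 0.15). Ly6c1 was at 3.73, 0 and 3.09 CPM against 41.2, 52.9 and 57.0 (log2 -4.15), and reads of its close copy Ly6c2, a gene of the gate, may not have been told apart from it. Gpr183, the oxysterol receptor that guides cells within the node, was at 39.6, 28.9 and 40.1 CPM against 127, 175 and 226 (log2 -2.17 ± 0.12).

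The ion channel genes Kcnc1 (log2 5.64), Kcna2 (3.60) and Cacng4 (3.87), the adhesion receptors Adgrg5 (3.69) and Adgrb2 (3.64) and the TGF-beta coreceptor Eng (3.86) completed the highest genes. All 6 had at most 21.3 CPM in any naive CD8 sum. Dcst2 had no UMI in the naive CD8 sums and 5.05, 5.11 and 3.25 CPM in naive CD4. Lowest beside those above were Myo10 (-3.81), Ppm1j (-3.65), Epas1 (-3.58), the sialyltransferase St8sia6 (-3.55), Pid1 (-3.53), the prolactin receptor Prlr (-3.46) and Lyzl4 (-3.22). St8sia6 was at 217, 193 and 196 CPM in naive CD4 and 22.8, 7.59 and 16.5 in naive CD8.

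**Figure D2:**
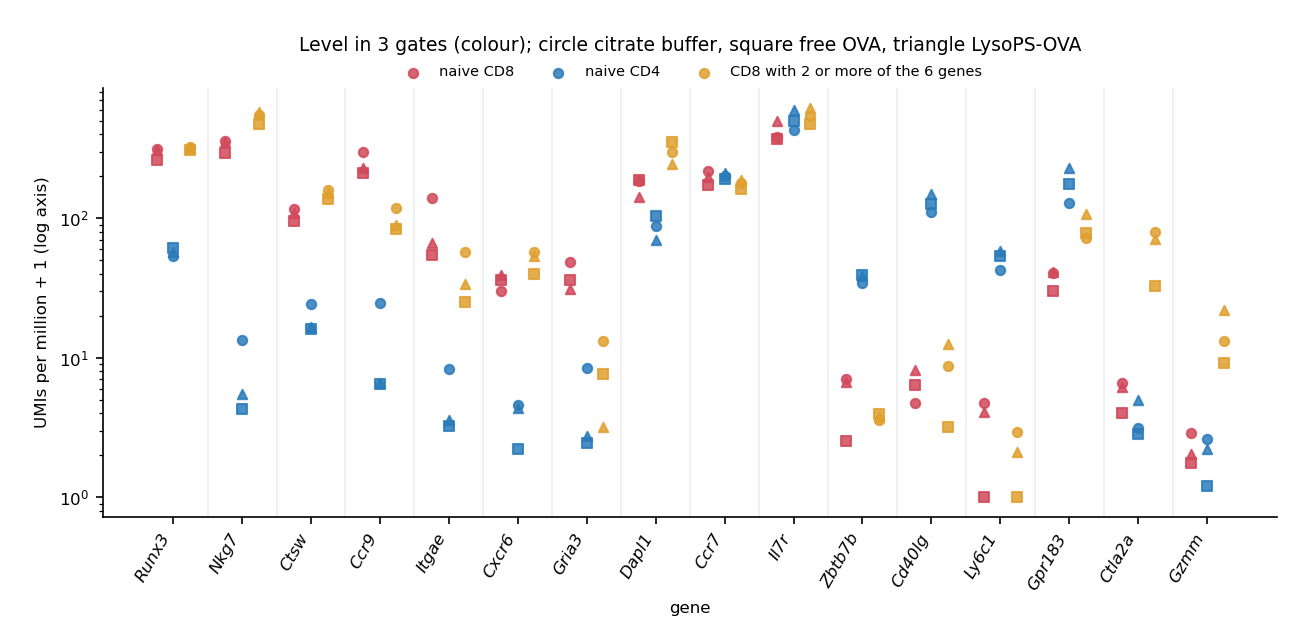
CPM plus 1 (y axis, log) of 16 genes (x axis) in summed naive CD8, naive CD4 and memory-like CD8 barcodes (colours), 1 point per library (shapes). Nkg7, Ccr9 and Itgae are higher in naive CD8 than in naive CD4 in each library, and Ctla2a and Gzmm are higher in memory-like than in naive CD8.

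The naive and quiescence genes were divided between the lineages. Of 20 tested, 4 were higher in naive CD8 and 10 lower, with a list median of -0.23 log2 beside 0.01 for all genes. The shares of all genes called were 7.11% higher and 6.45% lower. Dapl1, a transcript typical of naive and central memory CD8 cells, was at 184, 187.5 and 141 CPM against 86.3, 103 and 68.6. Klf2, which drives S1pr1, was also higher (log2 0.19), as was Tmem108 (log2 2.28). Lower were Igfbp4 (log2 -0.96), Btg2 (-0.54), Satb1 (-0.27), Il7r (-0.25), S1pr1 (-0.25) and Tcf7 (-0.21), among others. Ccr7 (log2 0.01 ± 0.066, adjusted p = 0.96) and Lef1 (-0.12, adjusted p = 0.079) were not called. The calls of Klf2 and Tcf7 were not made with DESeq2, that of Klf2 was lost without citrate buffer (log2 0.12) and that of Il7r without free OVA (log2 -0.20, adjusted p = 0.052).

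Genes of the receptor machinery and the early response were called lower in naive CD8 more often than higher. Genes induced by the receptor were not. Of all 10570 genes 7.11% were called higher and 6.45% lower. Of 18 genes of the T cell receptor machinery 3 were higher in naive CD8 (Ptpn22 and Themis among them) and 7 lower, led by the costimulatory receptor Cd28 (log2 -1.06 ± 0.066) and the inhibitory receptors Cd5 (-0.84) and Cd6 (-0.64). Of 14 early response genes tested 1 was higher (Dusp2, log2 0.47) and 9 lower, among them Ppp1r15a (-1.08), Dusp1 (-0.84), Junb (-0.75), Jun (-0.71) and Fos (-0.52). Nr4a1 was not called (-0.40, edgeR adjusted p = 0.39), and Dusp1, Jun and Fos were not called with DESeq2. On the list of genes induced by the T cell receptor 12 were tested, 2 higher, 1 lower and 9 not called. List medians were -0.10 log2 for the machinery, -0.47 for the early response and 0.29 for the induced genes, beside 0.01 for all genes. Of 16 MHC class I genes 7 were higher and the other 9 not called, led by their transactivator Nlrc5 (log2 0.56). The calls of Nlrc5, Psmb8 and H2-Q7 were made with DESeq2 and with any library left out. Those of Tap1, B2m and H2-Q6 were lost without free OVA, those of Tap2 and B2m without citrate buffer and that of Tap1 without LysoPS-OVA, and Tap1, Tap2 and H2-Q6 were not called with DESeq2. Of the TGF-beta list 2 of 13 were higher (Itgae and Pmepa1) and 5 lower, led by Tgfbr3 (-1.01) and Smad3 (-0.84).

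Among 15 tested genes of the memory and effector list 7 were higher in naive CD8 than in naive CD4: Nkg7, Cxcr6, Ctsw (log2 2.58), Tbx21 (1.75), Hopx (1.49), Prf1 (1.02) and Id2 (0.95). Lower were Ly6c1, Fasl (-2.61), Ccl5 (-0.60) and Cd44 (-0.60). Among all genes tested 7.11% were called higher and 6.45% lower. The call of Tbx21 was lost without free OVA (log2 1.14) and that of Cd44 without LysoPS-OVA (log2 -0.39), and neither was called with DESeq2. Ccl5 was seen after thinning to 2000 UMIs in 14.4%, 16.6% and 5.25% of naive CD8 barcodes and in 18.1%, 15.9% and 9.21% of B barcodes. The share in naive CD8 lay below that of B barcodes, which should lack Ccl5, in citrate buffer and LysoPS-OVA, and near it in free OVA. The part of other cells' RNA in these shares was not tested. Receptors for lysophosphatidylserine were present: Gpr174 was at 109, 82.8 and 89.0 CPM in naive CD8 (log2 0.17 against naive CD4, not called) and P2ry10 at 88.4, 89.6 and 112 (log2 0.26, adjusted p = 0.035, lost when any 1 library was left out).

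Few chain transcripts of the T cell receptor were read: 72, 36 and 51 UMIs of Trbv genes in naive CD8. Trbv20 gave 2, 0 and 3 of these against 25, 13 and 27 of 217, 157 and 218 in naive CD4. Trbv2 gave 4.17%, 22.2% and 5.88% against 16.1%, 26.1% and 23.9%, so the free OVA share lay inside the interval of its naive CD4 counterpart. Trbv12 gave 25% (15.5 to 36.6), 16.7% (6.37 to 32.8) and 21.6% (11.3 to 35.3), which overlap.

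Naive CD8 were next set against memory-like CD8 barcodes (233, 155 and 242), which asks what separates barcodes with few and many of the 6 genes. Of 9095 genes 68 (0.748%) were called higher and 153 (1.68%) lower in naive CD8. The memory-like barcodes were deeper (median 6322, 8561 and 7090 UMIs). Their share of CD8 went down to 15.2%, 15.5% and 21.4% after thinning to 3000 UMIs, which also left out shallower barcodes. The split between these gates thus moved with the UMIs and barcodes used.

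Ccr9 and Itgae were higher in naive CD8 than in memory-like CD8. They were the 2 higher genes of the 17 tested on the list of node entry, retention and exit, of which 2 were lower and 13 not called, the gut-homing integrin genes Itga4 (log2 -0.06, edgeR adjusted p = 0.86) and Itgb7 (0.12, adjusted p = 0.61) among these. Of all genes tested 0.748% were called higher and 1.68% lower. Ccr9 was at 296, 211 and 229 CPM against 116, 83.0 and 88.5 (log2 1.31 ± 0.09). Itgae was at 138, 53.1 and 65.3 against 55.9, 24.2 and 32.4 (log2 1.13 ± 0.13, edgeR adjusted p = 4.1e-11), and the glutamate receptor Gria3 at 47.4, 34.9 and 29.8 against 12.2, 6.61 and 2.20 (log2 2.40 ± 0.25). Itgae and Gria3 were also called with DESeq2, as was Ccr9. Ccr9 was named as a marker with results of the same libraries known, so its values and calls are a description. The other 8 of the 10 genes highest in naive CD8 (Ccl22, Spats2, Tmie, Dlg3, Spata7, Psd3, Ccdc22 and Car2) were not called with DESeq2. Of the 47 citrate buffer UMIs of Ccl22, a chemokine of dendritic cells, 9 lay in 2 barcodes, and of the 15 in LysoPS-OVA 12 lay in 1. Of 7 dendritic cell markers tested 5 were called higher in naive CD8, as were both haemoglobin genes tested, whose citrate buffer UMIs lay almost all in 2 barcodes. The calls of H2-Aa, H2-Ab1, H2-Eb1 and Cd74 were lost without citrate buffer, and the part of other cells' RNA was not tested.

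Genes of effector function were lower. Of 16 tested genes of the memory and effector list 11 were lower and 1, Id2 (log2 0.39), was higher, a call lost without citrate buffer (log2 0.17). Beside these, 1.68% of all genes were called lower and 0.748% higher. The protease inhibitor Ctla2a was at 5.6, 3.04 and 5.15 CPM in naive CD8 against 78.4, 31.6 and 69.8 (log2 -3.76 ± 0.23). Granzyme M (Gzmm) was at 1.87, 0.759 and 1.03 CPM against 12.2, 8.08 and 20.9 (log2 -3.38), and granzyme K (Gzmk) at 1.49, 0.759 and 1.03 against 7.71, 10.3 and 12.1 (log2 -3.04). Samd3 (-3.17), Il18rap (-3.14), the antisense transcript Ifngas1 (-2.47), Tshz3 (-2.20), Runx2 (-2.08), St3gal6 (-1.99) and Disc1 (-1.89) were also lower, of which Gzmk, Tshz3 and Disc1 were not called with DESeq2. Nkg7 was at 551, 469 and 571 CPM in memory-like barcodes (log2 -0.70 ± 0.068).

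The genes by which naive cells are usually known hardly separated the gates. Of 20 naive and quiescence genes 18 were not called and 2 were lower in naive CD8, Dapl1 (log2 -0.82 ± 0.079) and Il7r (-0.44, edgeR adjusted p = 5.9e-07). Most genes of any kind were not called either, with 0.748% of all genes higher and 1.68% lower. Dapl1 was at 295, 353 and 242 CPM in memory-like barcodes. Ccr7 (log2 0.12), S1pr1 (0.21), Tcf7 (0.13), Lef1 (0.19), Klf2 (0.14) and Satb1 (0.18) were not called. Gpr183 (-1.24) and Itgb1 (-1.07) were lower in naive CD8, as was Gpr174 (-0.41, lost without LysoPS-OVA or without free OVA).

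Read by the number of the 6 genes seen, the change was graded. Ccr9 went from 326 CPM in citrate buffer barcodes with none seen to 272 with 1, 144 with 2 and 80.4 with 3 or more. In free OVA it went from 233 to 193, 114 and 51.8, and in LysoPS-OVA from 268 to 204, 111 and 57.7. Dapl1 went the other way from none to 2 seen: from 124 to 314 in citrate buffer, 162 to 341 in free OVA and 60.4 to 265 in LysoPS-OVA. S1pr1 stayed between 232 and 348 CPM in all 12 sums. Gzmk was at most 1.98 CPM with none or 1 seen and 13.2, 13.3 and 18.4 with 3 or more. Just inside and just outside the limit, at 1 and 2 genes seen, Nkg7 was at 392, 289 and 378 and at 524, 434 and 510 CPM. Of naive CD8 barcodes 284, 103 and 189 had 1 of the 6 genes, and 231, 50 and 96 rested on a single Cd8a UMI.

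**Figure D3:**
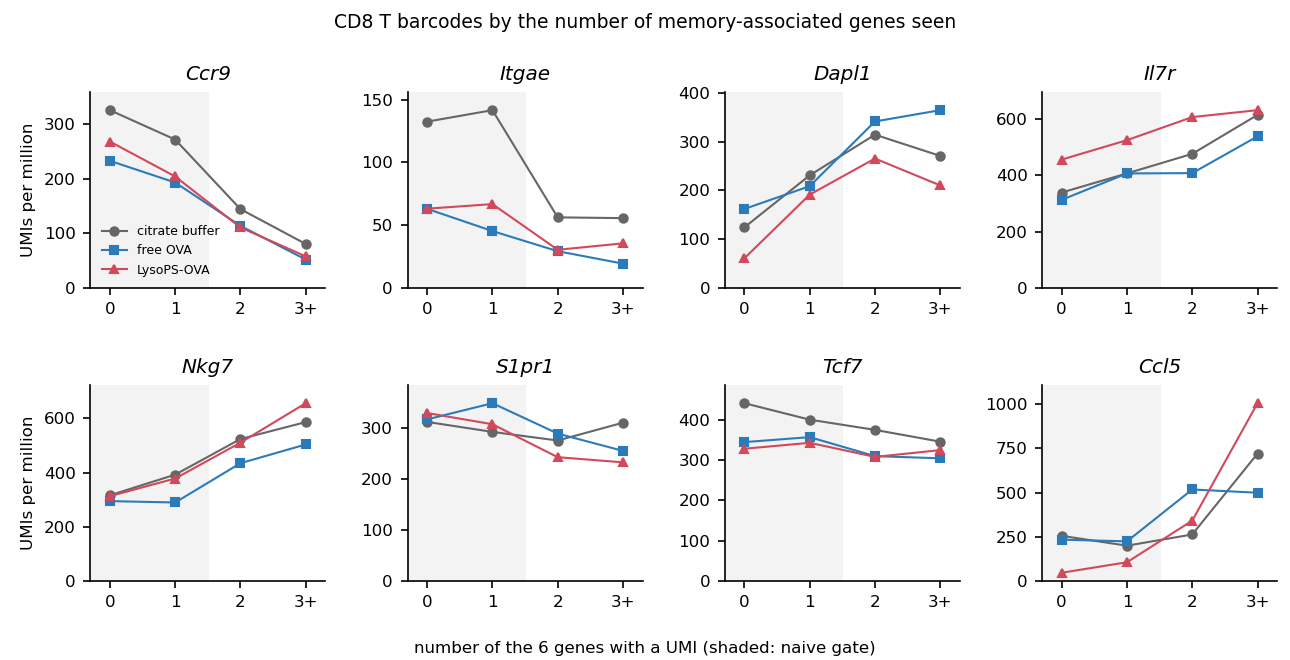
CPM (y axes) of 8 genes in CD8 T barcodes without Ifit1 or Ifit3, by the number of the 6 memory-associated genes with a UMI (x axes), 1 line per library and no error bars; the shaded part is the naive gate. Ccr9 declines along the axis and Nkg7 is higher with 3 or more than with none in each library, while S1pr1 and Tcf7 change less.

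Within the naive gate, Dapl1 was somewhat lower in barcodes where Ccr9 was seen. In barcodes with a Ccr9 UMI (328, 112 and 178) it was at 170, 178 and 130 CPM, and in those without at 208, 202 and 155. In barcodes with a Dapl1 UMI (168, 73 and 91) Ccr9 was at 261, 154 and 180 CPM, and in those without at 314, 251 and 251. Each gene was thus somewhat lower where the other was seen, in each library. Itgae was higher with Ccr9: 163, 75.5 and 83.8 CPM with it and 96.9, 17.7 and 41.4 without. Gria3 was higher with Ccr9 too (57.3, 42.1 and 35.5 against 31.3, 23.6 and 22.5). The barcodes with a UMI of either gene were deeper, and the values are sums over cells of 1 library, given as a description.

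LysoPS-OVA against citrate buffer asks how feeding antigen with the lipid differs from feeding none. In naive CD8 barcodes genes of protein folding, H2-Q7 and Cd28 were higher in LysoPS-OVA, and Ikzf2, Cd7, Itgae and Ezh2 lower. Of 3351 genes with at least 50 CPM and 30 UMIs in the higher library, 41 (1.22%) were higher and 75 (2.24%) lower by more than 1.5-fold on the scale of log2(CPM + 10). The median of all genes was -0.12 log2, with 2339 of the 3351 lower in LysoPS-OVA, and scaling by TMM turned the split to 68 higher and 46 lower. LysoPS-OVA against free OVA gave 31 higher and 31 lower of 3235 (0.958% each), and free OVA against citrate buffer 38 higher (1.13%) and 102 lower (3.02%) of 3375, or 56 and 62 with TMM. In that pair too most genes, 2362 of 3375, were lower in the antigen-fed library. The contrasts share libraries.

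Apart from the marker lists of other cells, the heat shock list had the median farthest from that of all genes between LysoPS-OVA and citrate buffer. Against free OVA the mitochondrial (0.41 log2) and corticoid (0.32) lists lay farther. All 11 measured members of 16 were higher in LysoPS-OVA than in citrate buffer, 6 of them by more than 1.5-fold, with a median of 0.89 log2. Of all 3351 genes 1012 were higher in this pair, 41 by more than 1.5-fold. Against free OVA 10 of 11 heat shock genes were higher (median 0.29), beside 1689 of 3235 of all genes. In free OVA 10 of 11 were higher than in citrate buffer (median 0.51), beside 1013 of 3375 of all genes. Hsph1, a nucleotide exchange factor for HSP70, was at 44.4, 67.6 and 110 CPM (LysoPS-OVA over citrate buffer 2.47-fold, 95% interval 1.96 to 3.11). The HSP40 genes Dnaja1 (307, 476 and 614 CPM) and Dnajb1 (29.5, 69.1 and 68.4) were 2.0-fold and 2.32-fold higher. Stip1 (55.6, 116 and 119) and Chordc1 (77.3, 119 and 151), cochaperones of HSP90, were 2.14-fold and 1.96-fold higher. Hsp90aa1 was at 273, 312 and 519.6 CPM, and was the member most above free OVA (1.67-fold, 1.48 to 1.87). In naive CD4 barcodes Hsph1 differed 2.40-fold and Dnaja1 2.28-fold between the same libraries, and in B barcodes 2.88-fold and 2.44-fold, so the difference was not limited to naive CD8.

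H2-Q7, a Qa-2 gene of the nonclassical MHC class I molecules (chromosome 17, 35439155 to 35443773), had 403, 288 and 744 UMIs, or 150, 219 and 383 CPM. LysoPS-OVA was 2.55-fold above citrate buffer (2.25 to 2.88) and 1.75-fold above free OVA (1.53 to 2.01). The UMIs were spread over 246, 142 and 265 barcodes, with at most 9 in any one. H2-Q genes are nearly alike in sequence, and the sum of the 6 in the files was 218, 304 and 477 CPM, a ratio of 2.19 between LysoPS-OVA and citrate buffer. The difference was 2.43-fold in naive CD4 barcodes and 1.11-fold in B barcodes. Among barcodes with Y-linked transcripts only it was 3.14-fold. H2-T23, which encodes Qa-1, had another order: 72.0, 164 and 75.1 CPM, with free OVA 2.28-fold above citrate buffer (1.87 to 2.78). The MHC class I list as a whole had a median of -0.09 log2 between LysoPS-OVA and citrate buffer and 0.02 with TMM.

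Vmn2r96 (chromosome 17, 18573151 to 18616003), a vomeronasal receptor gene of a large family of close copies, whose value is therefore uncertain, was at 14.9, 49.4 and 89.5 CPM, 6.0-fold higher in LysoPS-OVA than in citrate buffer (4.23 to 8.68). The same ratio was 4.62 in naive CD4 and 5.47 in B barcodes. Mfap1b, a splicing factor gene, was the other gene besides the chaperones Hsp90aa1 and Hsph1 to rank high against both libraries (29.9, 25.1 and 50.9 CPM).

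Ikzf2 (chromosome 1, 69531214 to 69687245), which encodes Helios, a factor of T cells that met self antigen strongly in the thymus, was at 171, 19.0 and 49.9 CPM. Free OVA was at 0.111 times citrate buffer (0.0713 to 0.166) and LysoPS-OVA at 0.293 times (0.233 to 0.365). Among barcodes with Y-linked transcripts only these ratios were 0.0936 and 0.252. The transcripts were uneven: in citrate buffer 161 of 559 barcodes had any, and 50 (8.94%, 6.71 to 11.6) had 3 or more, up to 29. In LysoPS-OVA 8 of 326 (2.45%, 1.07 to 4.78) had 3 or more. In free OVA it was 0 of 200, which allows up to 1.83% by the same exact interval and 1.5% by a limit of 3 barcodes, although these barcodes were the deepest. Memory-like CD8 barcodes gave 9.44%, 0% and 4.13%, naive CD4 3.37%, 0.838% and 1.13%, and B barcodes 0.839%, 0.243% and 0.306%, so citrate buffer was highest and free OVA lowest in all 4 gates.

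In citrate buffer the 50 barcodes rich in Ikzf2 had more Ccr9 (506 against 269 CPM in the other 509), Cd5 (258 against 123), Tox (888 against 599), Nt5e, which encodes CD73 (93.8 against 47.9), and Gria3 (104 against 40.3). They had less Dapl1 (101 against 195). The 8 barcodes of LysoPS-OVA also had more Ccr9 (320 against 226 CPM in the rest), Tox (769 against 500), Nt5e (64.1 against 37.7) and Cd5 (112 against 99.4). They had more Dapl1 than the rest (336 against 134 CPM) and no Gria3 UMI (30.8 CPM in the rest), so the pattern was the same only in part. These are sums over few cells of 1 library each and carry no test.

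**Figure D4:**
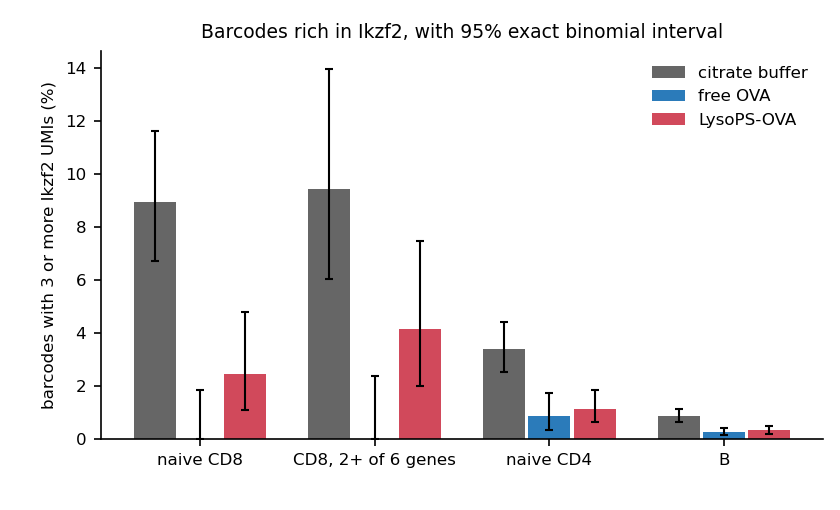
Percent of barcodes with 3 or more Ikzf2 UMIs (y axis) in 4 gates (x axis), 1 bar per library with its 95% exact binomial interval. Naive CD8 barcodes of citrate buffer stand at 8.94%, those of LysoPS-OVA at 2.45% and those of free OVA at 0%.

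Itgae followed the same order in part: 138, 53.1 and 65.3 CPM, with LysoPS-OVA at 0.474 times (0.385 to 0.582) and free OVA at 0.386 times citrate buffer (0.294 to 0.499). It was seen in 233 of 559, 37 of 200 and 72 of 326 barcodes. In naive CD4, where Itgae is scarce, the ratios were 0.351 and 0.307. Ccr9 differed less, at 0.775 (0.688 to 0.871) and 0.714 (0.621 to 0.820) times citrate buffer. Cd7, an immunoglobulin family receptor of T cells, was at 110, 41.8 and 29.8 CPM (LysoPS-OVA 0.271 times citrate buffer, 0.201 to 0.360). Ezh2, the polycomb methyltransferase, was at 72.0, 35.7 and 29.3 CPM (0.407 times, 0.297 to 0.550), and it was the 1 gene past 1.5-fold of the 11 measured on the polycomb list, of which 9 were lower beside 2339 of 3351 of all genes. Other genes low in free OVA against citrate buffer were Lgals1 (0.314 times), Phactr2 (0.346), Plac8 (0.355), the ATP receptor P2rx7 (0.360) and Eipr1 (0.389). Xist was at 309, 155 and 138 CPM, highest in the library with the lowest share of barcodes with Y-linked transcripts.

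**Figure D5:**
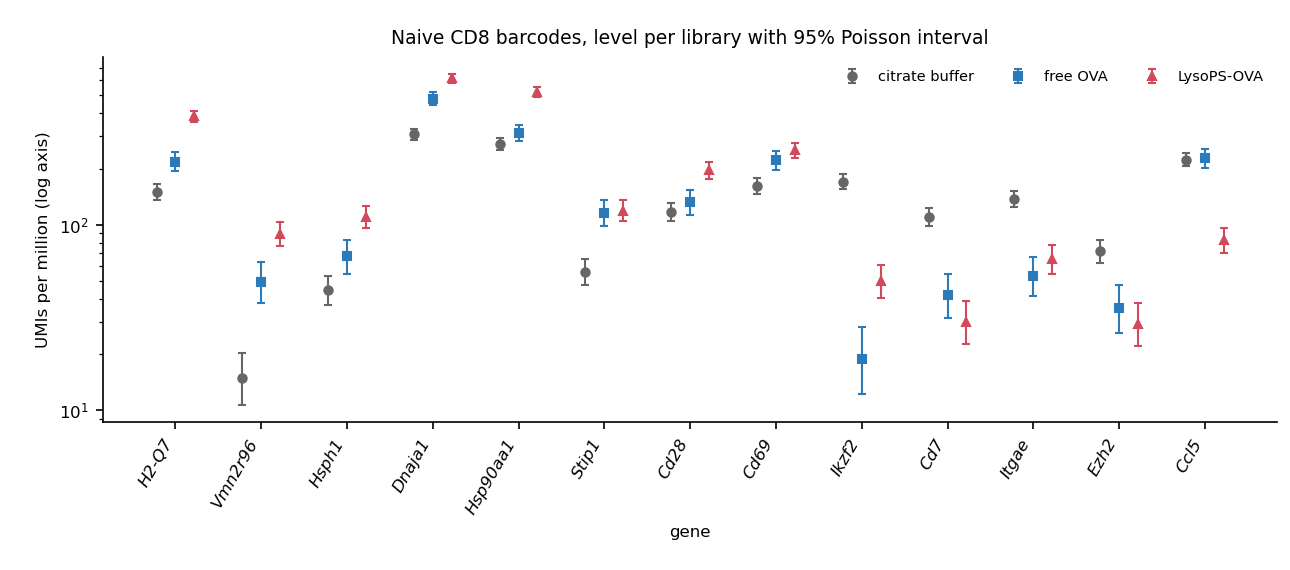
CPM (y axis, log) of 13 genes (x axis) in summed naive CD8 barcodes, 1 point per library with its 95% Poisson interval, which covers counting error only. H2-Q7, Hsph1, Dnaja1 and Hsp90aa1 are highest in LysoPS-OVA, and Ikzf2, Itgae, Cd7 and Ezh2 highest in citrate buffer.

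Naive and quiescence genes differed by less than 1.5-fold on this scale between LysoPS-OVA and citrate buffer. Of 20 naive and quiescence genes 18 were measured, 12 were lower and none passed 1.5-fold, with a median of -0.20 log2 (-0.10 with TMM), beside 2339 of 3351 of all genes lower and their median of -0.12. Foxo1, which drives Ccr7 and Il7r, was at 0.666 times citrate buffer (0.592 to 0.748) and Satb1 at 0.739 (0.694 to 0.787). Il7r was 1.32-fold higher (1.21 to 1.44) and Klf2 1.20-fold higher (1.11 to 1.30). In free OVA the same genes lay at 0.597 for Foxo1 and 0.735 for Satb1, and Actn1 at 0.632, Foxo1 and Actn1 past 1.5-fold. S1pr1 (300.4, 334 and 315 CPM), Ccr7 (216, 172 and 195.5) and Lef1 (1726, 1430 and 1428) differed by less than 1.5-fold in every pair. Cd44 stayed low, at 19.8, 8.35 and 11.3 CPM.

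Genes of antigen contact gave a mixed picture. Cd69, an early activation gene that also holds cells in the node, was at 162, 222 and 252 CPM (1.56-fold, 1.37 to 1.78). Cd28 was at 117, 132 and 196 CPM (1.67-fold, 1.44 to 1.95). Cd5, whose level follows receptor signal strength, was at 138, 106 and 99.8 CPM (0.725 times, 0.606 to 0.865), and Nr4a1, an immediate target of the receptor, at 9.70, 5.31 and 10.3 (1.06-fold, 0.561 to 1.98), not distinguishable at this depth. The early response list had 6 higher of 7 measured in LysoPS-OVA against citrate buffer, none past 1.5-fold, with a median of 0.37 log2. Of all genes 1012 of 3351 were higher in this pair. Jun was highest in free OVA (29.1, 74.4 and 43.2 CPM), as were Ly6a (44.8, 99.5 and 57.6), Arhgap5, Ust, Snhg12 and Cxcr4 (27.6, 53.1 and 30.4).

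Of 17 measured interferon response genes 13 were lower in LysoPS-OVA than in citrate buffer (median -0.27 log2), near the share of all genes that were lower (2339 of 3351), and 2 were lower and 1 higher by more than 1.5-fold. In free OVA 14 of 15 were lower (median -0.28) beside 2362 of 3375 of all genes, with 4 lower and 1 higher by more than 1.5-fold. Ifi27l2a was at 562, 370.5 and 347 CPM and Zbp1 at 59.7, 34.9 and 36.0. The gate had removed barcodes with Ifit1 or Ifit3. Ifi47, an interferon-induced GTPase, was higher in LysoPS-OVA than in free OVA (57.5, 41.0 and 75.1 CPM), as were Lgals1, Klf6 and Colec12 (1.99-fold, 1.87-fold and 2.07-fold). Mitochondrially encoded genes were 11 higher of 12 in LysoPS-OVA against citrate buffer (median 0.18), beside 1012 of 3351 of all genes. Against free OVA 10 of 12 were higher (median 0.41), beside 1689 of 3235 of all genes. They were led by mt-Nd3 at 488, 390.2 and 742 CPM. The median mitochondrial share of UMIs per barcode was 2.84%, 2.46% and 3.54%. Nuclear genes of the respiratory chain had medians of -0.07 and 0.01 log2.

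Gpr174, a lysophosphatidylserine receptor, was at 0.814 times citrate buffer in LysoPS-OVA (0.671 to 0.986) and 1.08-fold above free OVA (0.841 to 1.38). P2ry10, another, was 1.27-fold above citrate buffer (1.05 to 1.53) and 1.25-fold above free OVA (0.996 to 1.58). Neither passed 1.5-fold. Tgfbr2 was at 375, 331 and 418 CPM. Of the TGF-beta list 2 of 10 measured genes were lower by more than 1.5-fold in LysoPS-OVA than in citrate buffer, beside 75 of 3351 of all genes. These were Itgae and Pmepa1 (91.1, 69.1 and 53.5 CPM).

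Several lower genes are transcripts of other cells or lay in few barcodes. Lyz2 of macrophages had 213, 41 and 8 UMIs, 94 of the 213 in 1 barcode and 35 of the 41 in 1. H2-Ab1, an MHC class II gene, was at 134, 166 and 59.2 CPM, and 65.3% of its free OVA UMIs lay in 2 barcodes. H2-Aa, Cst3, Ifi30 and Basp1 also ranked low in LysoPS-OVA, and Cst3 turned from -0.83 to 0.32 log2 against citrate buffer when doublets were dropped. The 5 measured genes of the dendritic list were lower in LysoPS-OVA than in citrate buffer (median -0.75 log2). Of these, 4 are H2-Ab1, Cd74, H2-Aa and H2-Eb1, and the other is Ccr7 (-0.14), which naive T cells express. The list of 11 genes summed to 1355, 1399 and 809 CPM, Ccr7 included (216, 172 and 195.5). Both measured plasma cell markers, Igkc and Ighm, were lower by more than 1.5-fold in LysoPS-OVA and in free OVA than in citrate buffer (medians -0.74 and -0.94 log2), and so were 2 of 4 B cell markers in free OVA (median -0.56). Without the 14, 4 and 1 barcodes with over 1% of such markers, H2-Ab1 was at 0.443 times citrate buffer and 0.834 times free OVA. Ccl5, which was also seen in B barcodes, was at 223, 228 and 82.3 CPM. LysoPS-OVA was at 0.369 times citrate buffer (0.308 to 0.440), and in B barcodes the ratio was 0.501. Of the 160 LysoPS-OVA UMIs of Ccl5 in naive CD8, 69 lay in 1 barcode. Def8 was at 37.3, 75.9 and 21.6 CPM and 0.285 times free OVA (0.194 to 0.412). The part of other cells' RNA in these ratios was not tested.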

How the data were processed

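The deposited matrices give UMI counts, not normalized. The submitters' processing notes name Cell Ranger 7.2.0 and the mm10 build, and the labels' protocols describe 3' droplet libraries with 10000 cells loaded each. Which annotation was used, and whether introns were counted, is not given in the sources used here. These matrices hold 32285 genes and 28927, 28660 and 20873 barcodes with 96616683, 81559237 and 84089686 UMIs for citrate buffer, free OVA and LysoPS-OVA, so there are more barcodes than cells loaded. Of these 26348, 23331 and 17323 were kept. Doublets were scored by the Scrublet procedure, written anew with exact neighbours (30 principal components, 2000 variable genes, 2 simulated doublets per barcode, an expected rate of 0.8% per 1000 barcodes). They were kept in the main values and dropped in an alternative.

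UMIs were summed per gate and library. Naive CD4 barcodes had a Cd3 transcript and Cd4, no Cd8a, Cd8b1, Cd79a, Trdc, Foxp3, Ifit1 or Ifit3, fewer than 2 of the 6 memory-associated genes, and fewer than 2 of Icos, Maf, S100a4, Il2ra, Ctla4 and Tnfrsf4. B barcodes had Cd79a and no Cd3. Gates were compared with edgeR 4.0.16 (quasi-likelihood test, filterByExpr, TMM, library as a block, Benjamini-Hochberg adjusted p under 0.05 over all genes tested) in R 4.3.3, without the genes of the gates. The gates were drawn from the same cells' transcripts, and the p-values cover only the spread between 3 libraries.

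Treatments, with 1 library each, were compared by the log2 ratio of CPM with 10 CPM added, for genes with at least 50 CPM and 30 UMIs in the higher library and a threshold of 1.5-fold, with no p-value. Fold changes printed with an interval are plain ratios with conditional binomial 95% limits, shares have exact (Clopper-Pearson) limits, and levels exact Poisson limits. All cover counting error only. The limit for a count of 0 is 3 counts. Genes were named as the 8 highest and 8 lowest per pair of libraries, the 5 highest and lowest against both, the 10 highest and lowest called per gate comparison, up to 4 per list farthest from 0, and a set of homing, naive and receptor genes always named. The members and the 31 gene lists were chosen with earlier results of these data known. The edgeR comparison of naive CD8 with naive CD4 was tested on simulated counts, and the comparison of treatments was not. Thinning, doublet, filter, pseudocount and scaling alternatives, DESeq2 1.42.0 and each library left out are reported at the end.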

Additional observations from a re-analysis of the deposited data

Results flagged for a closer look

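Xcl1, which encodes a chemokine for cross-presenting dendritic cells, was 2.52-fold higher in free OVA than in citrate buffer in naive CD8 barcodes, and at 0.443 times in naive CD4 barcodes. The difference between these was not tested, and the naive CD8 value turned to -0.31 log2, the direction of naive CD4, with the ribosomal and Malat1 filter. Of the 73 Xcl1 UMIs in naive CD8 barcodes of free OVA 61 lay in 1 barcode, and of the 59 in citrate buffer 27 and 22 lay in 2.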

How the results depend on the processing

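The share of Cd3 barcodes in the naive CD8 gate moved with the barcodes used: in the order used above, it was 4.90%, 4.45% and 4.30% with barcodes of at least 10% ribosomal and 0.5% Malat1 transcripts, 1.57%, 1.53% and 1.60% after thinning to 1000 UMIs, and 3.39% in free OVA with barcodes of 1000 UMIs or more. Without barcodes rich in other cells' markers it was 5.33%, 3.90% and 5.04%, and the naive share of CD8 thinned to 3000 UMIs was 77.4%, 78.1% and 71.8%; both alternatives, and the barcodes with Y-linked transcripts only, were chosen after seeing the data. Genes past 1.5-fold numbered 47 (LysoPS-OVA against citrate buffer), 18 (against free OVA) and 40 (free OVA against citrate buffer) with 50 CPM added, 427, 351 and 495 with no filter, and 216 in the last pair with 1 CPM added. Genes called against naive CD4 numbered 595 with DESeq2 and 439 with no replicate block, where the library was the block, and between 1101 and 1259 with 1 library left out. Against memory-like CD8 they numbered 50 with DESeq2, 39 with no replicate block, and from 121 without LysoPS-OVA to 219 without free OVA. The cause of these differences was not tested. Xcl1 in free OVA against citrate buffer turned to -0.31 log2 with the ribosomal and Malat1 filter, and Cst3 in LysoPS-OVA against citrate buffer to 0.32 without doublets. Of 354 values of named genes between gates 37 lost their call, of 504 between treatments 70 moved and 2 reversed, and of 540 list medians 39 moved by over 0.1 log2. Depth limits the low genes most, such as Nr4a1 with 26, 7 and 20 UMIs.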

Other observations

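Of 8 measured glycolysis genes all were lower in LysoPS-OVA than in citrate buffer, none past 1.5-fold, with a median of -0.23 log2, beside 2339 of 3351 of all genes lower and a median of -0.12. Of 10 inhibitory receptor and tolerance genes 9 were lower in LysoPS-OVA and 9 in free OVA, where 2362 of 3375 of all genes were lower, and Nt5e alone passed 1.5-fold, in free OVA (53.0, 18.2 and 38.6 CPM). Of 11 cytokine receptors none passed 1.5-fold in LysoPS-OVA. Il18r1 was 1.60-fold higher in LysoPS-OVA than in citrate buffer, and past 1.5-fold with 10 CPM added in free OVA alone. Txnip, a target of corticoid receptors, was 1.62-fold higher in LysoPS-OVA than in citrate buffer. All 4 measured genes of the corticoid list were higher in this pair, beside 1012 of 3351 of all genes. Hmgb2, a chromatin gene of the cell cycle list, was at 224, 137 and 102 CPM, and of the 15 genes of that list 3 were measured.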
